A study of Mus musculus with 2 samples.

Results

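The genes described here build and stabilise the microtubules of young neurons or sit in the growth cone, the motile tip of a growing axon. They are Dcx, Dclk1, Tubb3, Tubb2b, Map2, Mapt, Map1b, Stmn2, Stmn3 and Gap43, 10 of the 15953 genes in the deposited table, taken by gene symbol. The cells were mouse neural stem cells grown in suspension, and 1 library carried the genotype label wild type and 1 the label Hikeshi cKO, a conditional knockout. Hikeshi is the import factor through which HSP70 chaperones reach the nucleus, and the series asks, by its title, how its loss affects proliferation and differentiation. The promoter or Cre line behind the deletion, the age and number of the mice and the brain region are not stated in the labels.

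Microtubules are polymers of alpha and beta tubulin, and cells make each subunit from several genes called isotypes. Structural microtubule-associated proteins such as doublecortin, MAP2 and tau bind along the polymer and stabilise it, whereas stathmins bind free tubulin and favour its disassembly. Neural stem cells become neurons through a neuroblast stage in which doublecortin and class III beta tubulin are widely used as markers, although several of the other genes are also read in dividing progenitors.

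The libraries held 18912683 reads (cKO) and 18839079 reads (wild type). Hikeshi itself had 640 against 718 reads, a ratio of 0.888 (95% counting interval 0.797 to 0.989), so directions below are drawn between libraries named by their labels. Of 15 fixed stem cell markers all were kept in the analysis, and Sox2 had 7633 against 7659 reads. Of 15 fixed neuron markers 12 were listed, and their summed level was 224 CPM (reads per 1000000 reads counted) in the cKO-labelled library against 208 CPM in the other. The stem cell markers summed to 11055 and 8635 CPM, or 11274 and 11581 TPM, with 2 at least 1.5-fold higher and 5 lower (median log2 difference -0.17). Tnc and Vim were the 2 higher ones, and Hes5, Prom1 and Sox9 were among the lower. By the same 1.5-fold limit, the share of all genes kept in the analysis was 10.2% for lower and 4.22% for higher. Both marker counts, 5 and 2 of 15, are larger shares than these. The libraries also differed in 4 Y-linked genes, with 305 to 1265 reads in the cKO-labelled library against 0 or 1 in the other. This difference cannot be told apart from that of the labels in any result below. With 1 library per label there was no replicate, no test was possible, and each interval covers counting error only.

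Sequence upstream of Dcx and of its closest relative Dclk1 is shown because these 2 genes of one family differed most in their ratio between the libraries among the microtubule-associated members. The windows come from RefSeq (GRCm38.p6) and run 5′ to 3′ on the gene's strand. Those of Dcx and of the first Dclk1 start end before the first base that the RefSeq gene or a GENCODE exon covers. Dclk1 has a second start inside the gene, whose whole window is also given and lies within the RefSeq gene. Capitals mark matches to CANNTG, the E-box, the core that basic helix-loop-helix factors bind, which reads the same on both strands.
Dcx, chrX:143933397-143933469, minus strand: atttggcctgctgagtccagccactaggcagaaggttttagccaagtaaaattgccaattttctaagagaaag
Dclk1, first start, chr3:55242114-55242302, plus strand: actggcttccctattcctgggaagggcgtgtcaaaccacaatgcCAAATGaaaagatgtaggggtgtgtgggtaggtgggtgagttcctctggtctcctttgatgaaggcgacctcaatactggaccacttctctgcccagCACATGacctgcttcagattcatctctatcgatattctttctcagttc
Dclk1, second start, chr3:55461478-55461727, plus strand: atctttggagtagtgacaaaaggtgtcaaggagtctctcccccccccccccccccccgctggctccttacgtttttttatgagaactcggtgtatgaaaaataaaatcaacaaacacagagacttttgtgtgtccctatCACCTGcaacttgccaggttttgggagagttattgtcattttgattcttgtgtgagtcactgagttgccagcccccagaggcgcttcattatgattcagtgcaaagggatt

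Across the 250 bases before a start, 66.2% of 32851 RefSeq windows held at least 1 E-box. Matches were counted in these whole windows, of which only 73 bases are printed above for Dcx and 189 for the first Dclk1 start. Both windows of Dcx, which overlap, held 0, the first Dclk1 window 2 and the second 1. The RefSeq gene itself covers 177 of the 250 bases of the first Dcx window and 61 of the first Dclk1 window. It covers all of the second window of each gene, so these counts are not of upstream sequence alone. Stmn3 and Map1b held 1 each, and Map2 and Tubb3 held 0. TATAAA, read on both strands, stood in 12.4% of all windows and in those of Dcx and Map1b among the members. The match in Dcx lies outside the printed sequence. Windows differed in base composition, from 41.6% GC in the first Dcx window to 81.2% in that of Map2. Tubb2b, Mapt, Stmn2 and Gap43 were not matched. These matches are descriptions of letters and say nothing of binding.

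Among the 10 genes, Dcx was about 10-fold lower in the cKO-labelled library and Gap43 nearly 2-fold higher, while the other 7 that reached 1 CPM lay within 1.5-fold. Genes with at least 1 CPM in either library were kept, which held for 9 of the 10 genes and not for Stmn2. On the scale log2 of (CPM + 1), cKO minus wild type, 1 kept member was at least 1.5-fold lower and 1 at least 1.5-fold higher. Of all 12618 genes kept, 10.2% were at least 1.5-fold lower and 4.22% at least 1.5-fold higher, so the members' counts lie near the background. The median difference of the kept members was -0.23, beside -0.02 for all kept genes, with 6 members below 0 and 3 above. Of all kept genes, 52.2% lay below 0. Summed, the 10 genes had 78886 against 83257 reads, a ratio of 0.944 (0.935 to 0.953). Tubb2b supplied most of these reads, and without it the ratio was 1.03 (1.01 to 1.04).

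**Figure D1:**
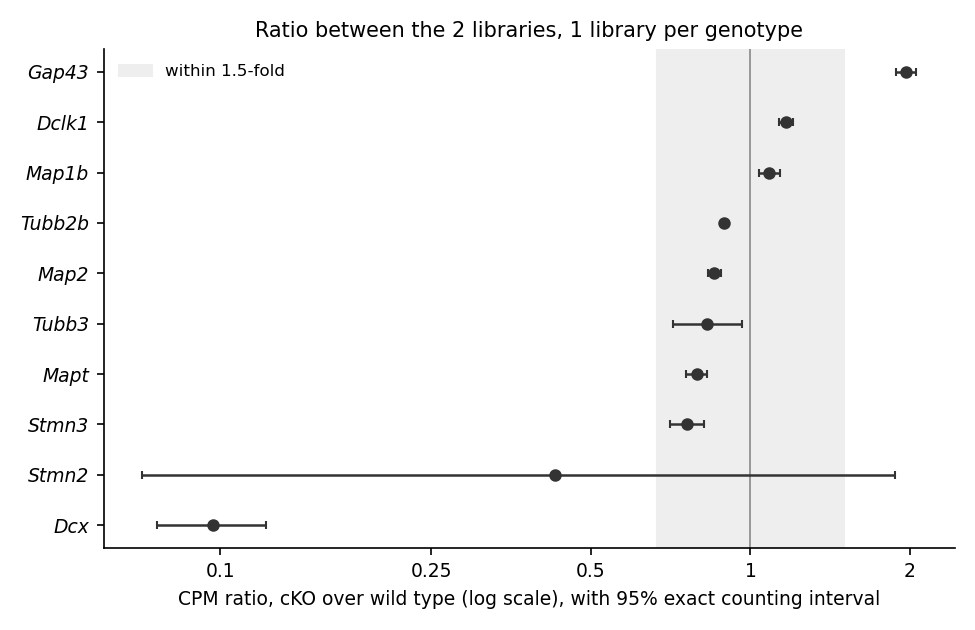
CPM ratio of each of the 10 genes, cKO over wild type on a log axis, with the 95% exact counting interval as a bar and a grey band for ratios within 1.5-fold. Dcx (0.0967), Stmn2 (0.427) and Gap43 (1.97) lie outside the band, and the interval of Stmn2 spans it.

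Levels compared between genes are TPM, the authors' values per transcript length. Tubb2b stood highest in both libraries, at 2419 TPM (cKO) and 2712 TPM (wild type), above 99.7% of listed genes in each. Gap43 came next at 535 and 273 TPM. Stmn3 and Map2 stood in opposite order in the libraries. Stmn3 was above Map2 in the wild-type-labelled library (181 against 172 TPM, counting intervals 172 to 189 and 169 to 175) and below it in the cKO-labelled library (136 against 147 TPM, 129 to 144 and 144 to 150). Those intervals overlapped in the wild-type-labelled library and barely did so in the other. Overlap of separate intervals does not decide the order of this pair, which was not tested within either library.

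Dclk1 followed at 124 and 107 TPM, and Mapt at 65.7 and 82.9 TPM. Map1b (28.9 and 26.5 TPM) lay next to Tubb3 (19.6 and 23.7 TPM). The counting intervals of these 2 overlapped for wild type (25.6 to 27.3 and 21.4 to 26.1). Dcx had 0.79 TPM in the cKO-labelled library against 8.14 TPM in the other. Stmn2 was lowest in both, at 0.16 and 0.38 TPM. The 10 genes thus spanned levels from close to the detection limit to among the most abundant messages.

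**Figure D2:**
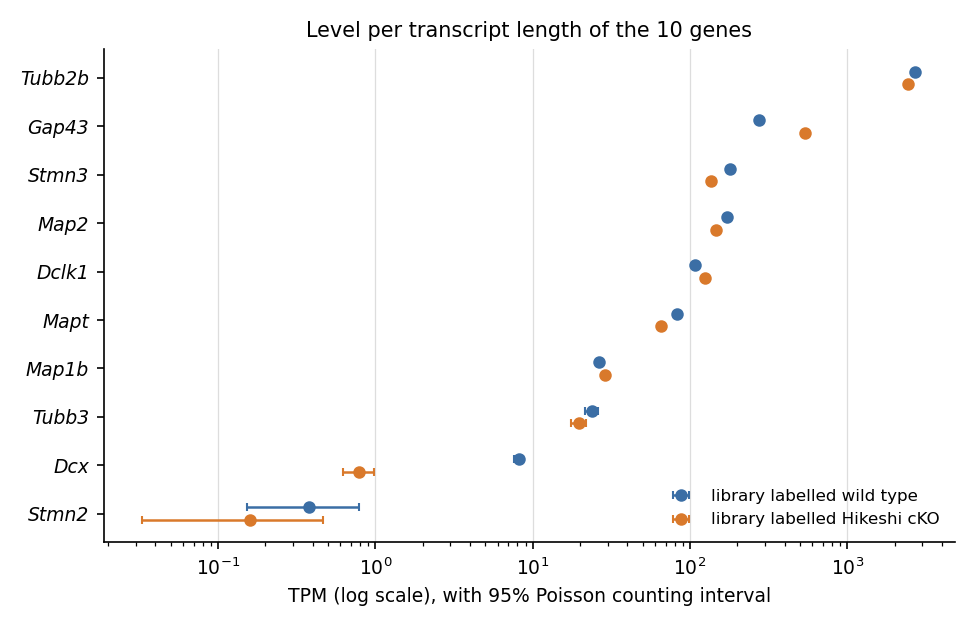
TPM of the 10 genes on a log axis in the wild-type-labelled library (blue) and the cKO-labelled library (orange), with 95% Poisson counting intervals as bars. Tubb2b is highest and Stmn2 lowest in both libraries, and Dcx stands at 8.14 (wild type) and 0.79 TPM (cKO).

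Doublecortin (Dcx, Entrez 13193, chromosome X, 143855842 to 143933396, GRCm38.p6) is a microtubule-stabilising protein of migrating neuroblasts, and its loss in humans causes a failure of cortical migration called lissencephaly. The cKO-labelled library held 80 reads of it and the wild-type-labelled library 824, or 4.23 against 43.7 CPM. The cKO-labelled library was the low one, by 10.3-fold (8.21 to 13.2). The log2 difference was -3.10, and 3.85% of kept genes were at least 2-fold lower. Among 448 kept genes of the X chromosome, 45 were at least 1.5-fold lower (10.04%) and 25 at least 1.5-fold higher, with a median of 0.02. Of all kept genes, 10.2% were at least 1.5-fold lower and 4.22% at least 1.5-fold higher. The part of its chromosome in the level of Dcx was not tested.

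Markers of glial lineages moved in the same direction as Dcx. For comparison, 10.2% of all kept genes were at least 1.5-fold lower and 4.22% at least 1.5-fold higher. Of 19 fixed oligodendrocyte lineage markers 17 were kept, of which 13 were lower by at least 1.5-fold and 0 higher (median -2.44). Their summed level was 2729 CPM (cKO) against 4286 CPM (wild type), and Mobp was at 0 reads in the cKO-labelled library. Of 12 astrocyte markers 10 were lower and 0 higher (median -1.35), with sums of 2146 and 4216 CPM and none at 0. Of 9 kept neuron markers 2 were higher and 2 lower (median 0.21), and of 21 kept genes of mature neurons 0 were higher and 7 lower (median -0.25). These lists share genes, and the lower neuron markers, Snap25 and Syp, are also among the lower mature neuron genes. The part of these cell types in the level of Dcx was not tested, and fewer cells of a type and less RNA per cell cannot be told apart in bulk RNA.

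Dclk1 (Entrez 13175, chromosome 3, 55242303 to 55539068) encodes a doublecortin-like protein joined to a kinase domain and is also made by dividing neural progenitors. It had 8724 reads against 7450, or 461 and 395 CPM, so the cKO-labelled library was slightly the higher one, by 1.17-fold (1.13 to 1.203). Dclk2, the other kinase of the family read at a substantial level, had 4817 against 4531 reads. Dcx made up 0.587% (0.466 to 0.730) of the reads of Dcx, Dclk1, Dclk2 and Dclk3 in the cKO-labelled library against 6.43% (6.02 to 6.87) in the other. The family sum was 1.06-fold higher (1.03 to 1.09) in the cKO-labelled library. The low level of Dcx was thus not seen in Dclk1 or Dclk2, which supplied most of this sum. Relatives with few reads were Dcdc2a (0 against 7), Dcdc2b (12 against 22) and Rp1l1 (3 against 0). No 100-base window of the Dcx or Dclk1 transcript recurred in another GENCODE gene.

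Map2 (Entrez 17756, chromosome 1, 66175202 to 66442583) encodes the microtubule-associated protein that marks dendrites. It had 9362 reads against 10909, or 495 and 579 CPM, and was 1.17-fold lower in the cKO-labelled library (1.14 to 1.203). Tau, the axonal counterpart encoded by Mapt (Entrez 17762, chromosome 11, 104229409 to 104332090), had 3535 against 4449 reads, or 187 and 236 CPM. It was 1.26-fold lower (1.21 to 1.32). Map4, the relative of both that most cell types make, had 9119 against 8586 reads. The share of Map4 in the reads of the 3 genes was thus 41.4% (40.8 to 42.1) in the cKO-labelled library against 35.9% (35.3 to 36.5) in the other.

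Map1b (Entrez 17755, chromosome 13, 99421464 to 99516602) encodes a large protein of growing axons that is cut into a heavy and a light chain. It had 3872 reads against 3557, or 205 and 189 CPM, and was 1.08-fold higher in the cKO-labelled library (1.04 to 1.14). Its relative Map1a, which takes over in mature neurons, had 1129 against 1993 reads and was 1.77-fold lower (1.65 to 1.91). Map1b therefore supplied 62.2% (61.0 to 63.4) of the reads of Map1a, Map1b and Map1s in the cKO-labelled library against 53.6% (52.4 to 54.8) in the other.

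Tubb3 (Entrez 22152, chromosome 8, 123411553 to 123422015) encodes class III beta tubulin, the isotype used to mark neurons. It had 327 reads against 393, or 17.3 and 20.9 CPM, so the cKO-labelled library was the lower by 1.21-fold (1.04 to 1.40). Tubb2b (Entrez 73710, chromosome 13, 34127008 to 34130354) encodes an isotype of the developing brain that progenitors make as well. It had 45424 reads against 50779, or 2402 and 2695 CPM, and was 1.12-fold lower (1.11 to 1.14).

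Reads of Tubb2b are partly uncertain, since 26.1% of the 100-base windows of its transcript are also found in Tubb2a, and its estimated counts were not whole (45424.5 and 50778.9). Tubb2a had 19522 against 18794 reads. Summed, the pair had a ratio of 0.930 (0.920 to 0.940), so the direction of Tubb2b held with its near copy included. None of the other 9 members shared a 100-base window with another gene. The only exonic overlaps were with genes on the opposite strand, Gm10558 over 0.754% of the exonic bases of Map2, and Gm42609 and Gm21954 over 0.569% and 0.177% of those of Dclk1.

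The sum of the 8 beta tubulin genes did not differ detectably between the libraries (ratio 1.005, 0.9965 to 1.014), while their make-up did. Per transcript length Tubb2b held 44.1% of beta tubulin TPM in the cKO-labelled library against 49.5% in the other, and Tubb3 held 0.358% and 0.432%. As shares of reads, Tubb2b held 43.4% (43.1 to 43.8) and 49.0% (48.7 to 49.3), and Tubb3 0.313% (0.280 to 0.349) and 0.379% (0.343 to 0.419). Class III tubulin was thus a minor isotype in both libraries, and its intervals overlapped slightly.

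Tubb4a, an isotype abundant in oligodendrocytes, held 0.468% (0.427 to 0.511) of beta tubulin reads in the cKO-labelled library against 2.16% (2.07 to 2.25) in the other. The broadly made Tubb5, Tubb6 and Tubb4b held larger shares in the cKO-labelled library: Tubb5 had 25.8% against 22.0%, Tubb6 5.92% against 3.75% and Tubb4b 5.33% against 4.54%. Tubb2a held 18.7% against 18.1%. Tubb1, a platelet isotype, had 0 against 3 reads.

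Among the alpha tubulins, whose sum was 1.05-fold lower in the cKO-labelled library (1.04 to 1.06), Tuba1a, the main isotype of the developing brain, held 78.3% (78.0 to 78.6) against 83.6% (83.4 to 83.8) of reads. Tuba1b, made by most dividing cells, held 20.5% (20.2 to 20.7) against 15.5% (15.2 to 15.7). Tuba1c held 0.812% against 0.512%, Tuba8 0.2497% against 0.220% and Tuba4a 0.170% against 0.194%. Tuba3a and Tubal3 had at most 1 read in either library. Alpha and beta isotypes are alike in sequence, and how the authors divided reads between copies is not stated in the labels or headers.

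**Figure D3:**
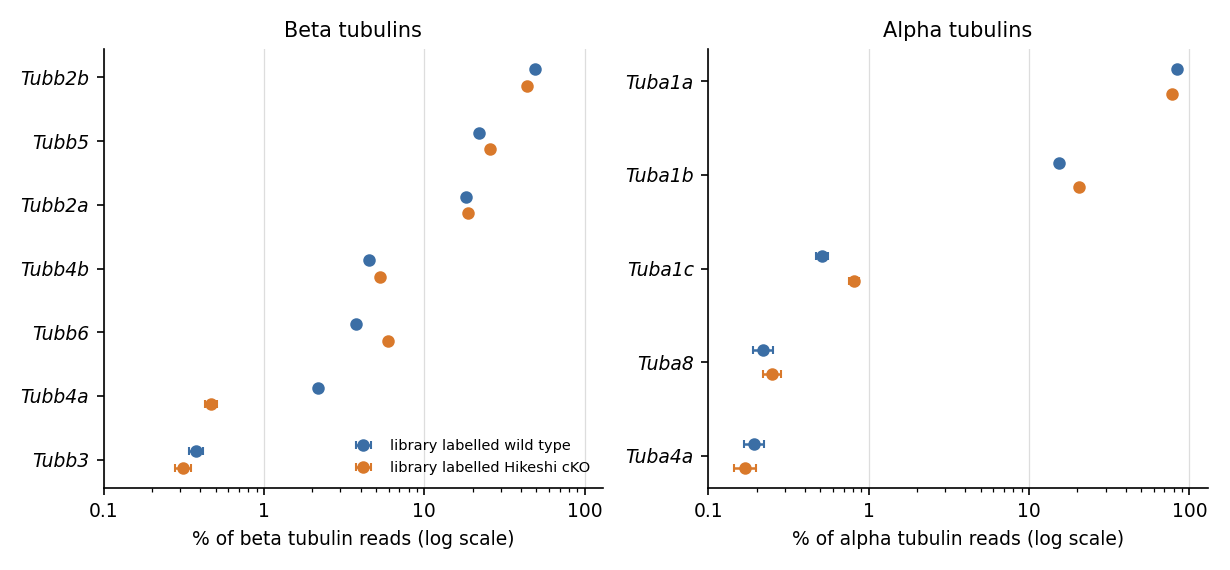
Share of each isotype in the reads of all beta (left) or alpha (right) tubulin genes, in percent on a log axis, with exact binomial 95% intervals as bars, for the wild-type-labelled library (blue) and the cKO-labelled library (orange). Tubb4a stands at 2.16% (wild type) and 0.468% (cKO) and Tubb6 at 3.75% and 5.92%. Isotypes with 3 reads or fewer are left out.

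Stmn3 (Entrez 20262, chromosome 2, 181306459 to 181314500) encodes a membrane-bound stathmin of neurons. It had 1316 reads against 1727, or 69.6 and 91.7 CPM, and was 1.32-fold lower in the cKO-labelled library (1.23 to 1.42). Stmn2 (Entrez 20257, chromosome 3, 8509527 to 8561604) encodes another neuronal stathmin, needed for axon growth. It had 3 reads against 7, a ratio of 0.427 (0.0712 to 1.87), so a difference was not detectable at this depth.

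The other stathmins lay above 0 in the same comparison. Stmn1, the soluble form of dividing progenitors, had 7090 against 5367 reads, and Stmn4 had 1167 against 707 and was 1.64-fold higher (1.496 to 1.81) in the cKO-labelled library. Stmn3 held 13.7% (13.1 to 14.4) of stathmin reads in the cKO-labelled library against 22.1% (21.2 to 23.1) in the other. Stathmin reads summed over the 4 genes were 1.22-fold higher (1.19 to 1.26) in the cKO-labelled library.

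Gap43 (Entrez 14432, chromosome 16, 42248552 to 42340651) encodes a membrane-attached substrate of protein kinase C that is concentrated in growth cones. The cKO-labelled library held 6243 reads of it and the other 3162, or 330 against 168 CPM. The cKO-labelled library was the high one, by 1.97-fold (1.88 to 2.05). Its log2 difference of 0.97 falls just short of 2-fold, a size that 1.25% of kept genes reached in this direction. Basp1 and Marcks, which encode proteins of similar function at the membrane, had 4692 against 4694 and 15456 against 23626 reads, so the direction of Gap43 was not shared by these 2.

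**Figure D4:**
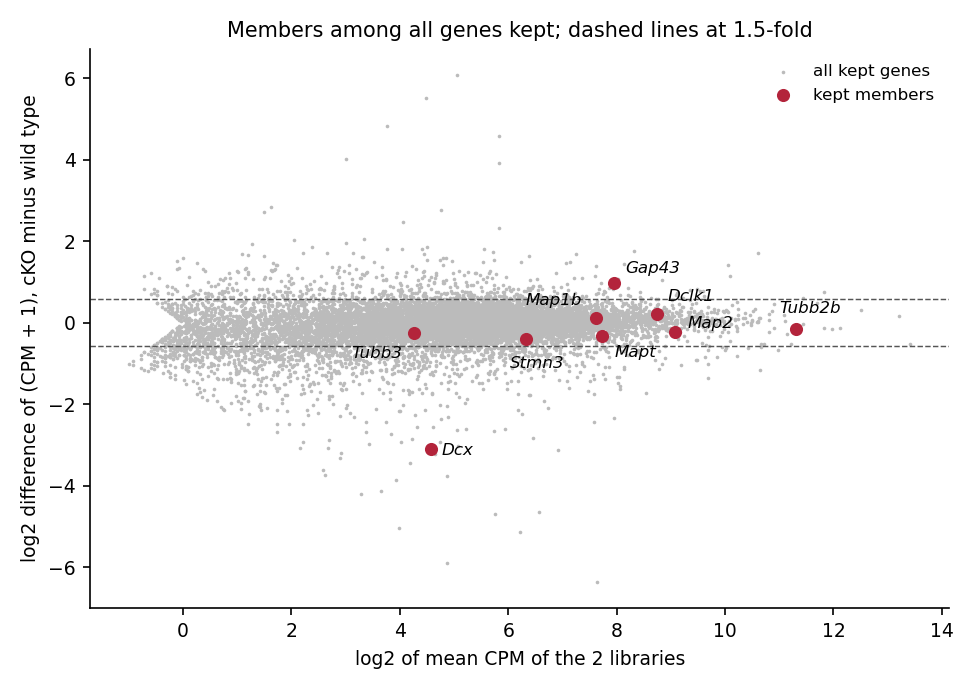
Difference of log2 (CPM + 1), cKO minus wild type, against log2 of the mean CPM for the 12618 kept genes (grey) and the 9 kept members (red), with dashed lines at 1.5-fold. Dcx (-3.10) and Gap43 (0.97) lie beyond the lines, and the other 7 lie between -0.39 and 0.22.

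Transcript forms were compared through the length implied by the deposited FPKM and read counts, in kilobases of transcript counted. Dividing the ratio of implied lengths by its median over 8385 genes with at least 300 reads in both libraries left 95% of these genes between 0.963 and 1.04. The 9 kept members were off that median by -0.890% to 1.01%, inside this range. Dclk1, with 15 GENCODE transcripts from 0.413 to 7.96 kb, had implied lengths of 6.03 kb (cKO) and 5.95 kb (wild type). Map2, with 24 transcripts up to 6.26 kb, had 5.49 and 5.45 kb, and Mapt had 4.63 and 4.61 kb. A shift between long and short forms large enough to move these averages was not seen. Dcx, at 8.63 and 8.68 kb, rests on an FPKM of 0.49 given to 2 decimals in the cKO-labelled library. The same rounding leaves the length of Stmn2 uninformative.

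The remaining genes of the microtubule system were described by fixed lists. Their counts stand beside the 4.22% of all kept genes at least 1.5-fold higher and the 10.2% at least 1.5-fold lower. Of 10 kept alpha and beta tubulins outside the members, 1 was at least 1.5-fold higher and 1 lower (median 0.17). Tubb6 was 1.59-fold higher in the cKO-labelled library (1.53 to 1.65) and Tubb4a 4.59-fold lower (4.16 to 5.07). Of 26 kept structural microtubule-associated proteins 2 were higher and 5 lower (median -0.13). Mtus1 was 1.796-fold (1.49 to 2.17) and Mid2 1.54-fold (1.44 to 1.65) higher, while Tppp, a microtubule-bundling protein best known from oligodendrocytes, was 2.60-fold lower (2.06 to 3.29). Map6d1 was 1.78-fold lower (1.55 to 2.06). Of the doublecortin relatives Dclk2 and Dcdc2b were kept, and neither was 1.5-fold apart with 1 CPM added. Dcdc2b had 12 against 22 reads, a ratio of 0.543 with no added value (0.245 to 1.15), and was counted as lower with 0.25 CPM added.

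Of 18 kept growth cone membrane and guidance-response genes, 2 were higher and 5 lower (median -0.23), beside 4.22% and 10.2% of all kept genes. The neurofilament genes Nefm and Nefl were 2.49-fold (2.10 to 2.97) and 1.77-fold (1.39 to 2.26) higher in the cKO-labelled library. Both are also the higher genes of the neuron marker list. Nfasc, an adhesion molecule of axons and of oligodendrocytes, was 3.18-fold lower (2.89 to 3.50), the adhesion molecule Ncam1 2.12-fold (2.04 to 2.21) and Dpysl4 1.88-fold (1.69 to 2.11). Dpysl4 is a collapsin response mediator gene, with a log2 difference of -0.89. The others of that family, Crmp1, Dpysl2, Dpysl3 and Dpysl5, lay within 1.5-fold, at -0.09, -0.26, -0.06 and -0.28. Other adhesion molecules and filaments differed from these, with Chl1 and Cadm1 at log2 differences of 0.35 and 0.28 and the filament gene Ina at -0.71.

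Among 15 kinases and phosphatases that act on tau and related proteins, 0 were higher and 2 lower (median -0.11). Of all kept genes, 4.22% were higher and 10.2% lower by that size. The lower kinase and phosphatase genes were the phosphatase subunit gene Ppp2r2b at 2.41-fold (2.19 to 2.66) and the Cdk5 activator gene Cdk5r2 at 2.01-fold lower (1.23 to 3.35). Cdk5 and Gsk3b, the best known tau kinases, had log2 differences of -0.35 and -0.04. Of 14 kept lissencephaly and dynein genes, the class of disease gene to which Dcx belongs, 1 was higher and 0 lower (median -0.01). That gene was Reln, a secreted guide of migrating neurons, at 2.53-fold (2.17 to 2.95), while Pafah1b1, which encodes LIS1, had 6004 against 6024 reads.

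Of 28 kept tubulin folding, severing and modifying enzymes 0 were higher and 3 lower (median -0.08), beside 4.22% and 10.2% of all kept genes. Sirt2, a tubulin deacetylase abundant in oligodendrocytes, was 2.51-fold lower in the cKO-labelled library (2.40 to 2.63), the severing gene Fign 1.98-fold (1.31 to 3.04) and the deglutamylase gene Agbl5 1.70-fold (1.34 to 2.16). The 5 folding cofactors Tbca to Tbce lay between -0.14 and 0.11. These 5 cofactors were thus near the median of all genes.

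Regulators and later genes of the neuronal lineage gave mixed values beside those of Dcx. Of 32 immature neuron and neuroblast genes 17 were kept, 2 higher and 2 lower (median 0.02), beside 4.22% and 10.2% of all kept genes. Cd24a, a surface protein of neuroblasts, was 2.12-fold higher in the cKO-labelled library (1.97 to 2.28) and the transcription factor gene Sox11 1.51-fold (1.44 to 1.59), next to the limit. Dlx2 was 1.97-fold (1.43 to 2.76) and Myt1 1.65-fold (1.53 to 1.78) lower. Elavl3, an RNA-binding protein of newborn neurons, had 858 against 1008 reads.

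Of 21 kept genes of mature neurons 0 were higher and 7 lower (median -0.25), beside the 10.2% of all kept genes that were lower. Chga, a dense core vesicle protein, was 4.76-fold lower in the cKO-labelled library (3.21 to 7.26), and the glutamate receptor genes Grin1 and Gria1 were 2.14-fold (1.92 to 2.39) and 1.93-fold (1.75 to 2.14) lower. Rbfox3, which encodes the nuclear marker NeuN, had 20 against 19 reads. Among 12 genes that repress neuronal genes outside neurons, 1 was lower (median 0.00), the corepressor gene Rcor2 at 1.801-fold (1.61 to 2.01). Rest, the repressor itself, had 610 against 608 reads.

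**Figure D5:**
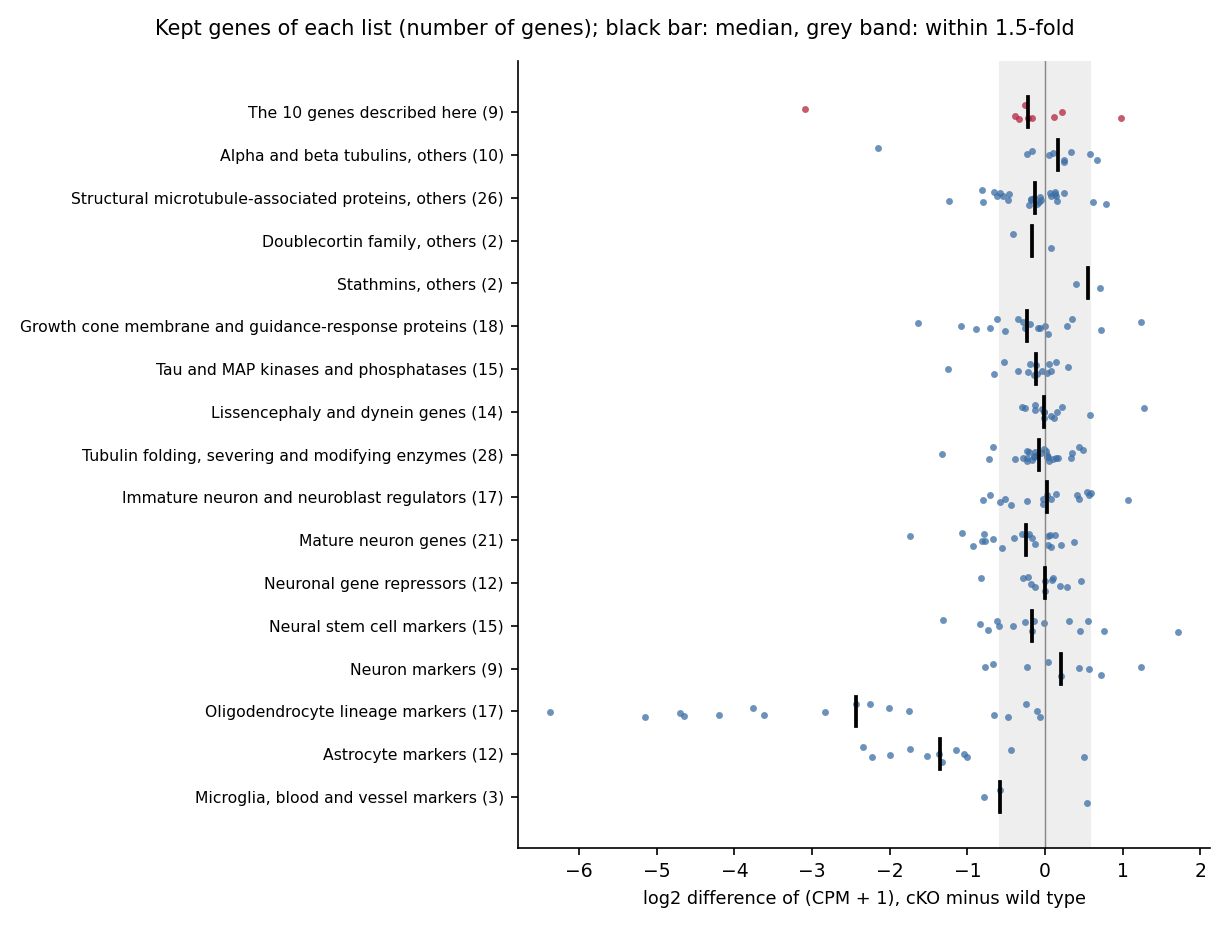
Difference of log2 (CPM + 1), cKO minus wild type, for each kept gene of the members (red) and of the fixed lists (blue), with the number of genes in brackets, a black bar at the median and a grey band for differences within 1.5-fold. The medians of the microtubule and neuronal lists with at least 9 genes lie between -0.25 and 0.21. Those of the smaller lists of other stathmins and other doublecortin family genes lie at 0.55 and -0.16. The medians of the oligodendrocyte and astrocyte markers lie at -2.44 and -1.35.

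With 2 libraries the likeness of 1 gene's pattern to another is a single difference, and by this measure 3 genes lay nearest Dcx. Tmem163, a zinc transporter gene, had 3 against 166 reads (ratio 0.0180, 0.00368 to 0.0535) and lay 0.015 away on the log2 (CPM + 1) scale. Vxn had 458 against 4100 reads (0.111, 0.101 to 0.123) and lay 0.019 away. The receptor gene Gpr149 had 11 against 231 reads (0.0474, 0.0234 to 0.0865) and lay 0.029 away. Their CPM ratios differ from that of Dcx because the added 1 CPM weighs more at low counts.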

How the data were processed

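RNA of 1 library per genotype label was analysed, grouped by the genotype label, and table columns were matched to libraries by the genotype in the column name. The authors deposited an estimated count of reads per gene, TPM and FPKM, named so per the file headers, and a normalized read count, a signal per the file headers that equals the estimated count rounded up times 1.00261 (cKO) or 0.997397 (wild type). Per the submitters' processing notes the build was GRCm38.p6. The aligner, counter, annotation and strand setting were not given in the sources used here.

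Estimated counts were rounded, divided by library totals (CPM), and 1 CPM was added before the log2 ratio. Ratios in the text carry no added value and have 95% exact conditional binomial (Clopper-Pearson) intervals, as do shares. TPM intervals are exact Poisson. Without molecular identifiers reads can be copies of 1 molecule, so intervals cover counting error only. The intervals were tried only on simulated Poisson counts. These vary by counting error alone, so the trial says nothing of copied reads or of reads shared between genes. Coordinates came from a RefSeq table of GRCm38.p6, matched by gene number for 15905 genes. Shared 100-base windows, GC content and transcript lengths came from GENCODE vM21.

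The members and lists were chosen with earlier results of these data known. Named were all members, every tubulin isotype, up to 3 genes per list and direction at least 1.5-fold apart with at least 50 reads in the higher library, and the 3 genes nearest Dcx in difference. Members of a list named with read counts or differences within 1.5-fold, and relatives of the members, were chosen after their values were seen. The 3 kept microglia, blood and vessel markers had a median of -0.58 (1 lower, 0 higher by at least 1.5-fold, beside 10.2% and 4.22% of all kept genes). Python 3.11.15, scipy 1.17.1, pandas 2.3.3 and numpy 2.4.6 were used.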

Additional observations from a re-analysis of the deposited data

How the results depend on the processing

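The count of members at least 1.5-fold lower stayed at 1 and that of members at least 1.5-fold higher at 1 under other scalings (the authors' normalized count, median of ratios, upper quartile, TPM), 0.25 or 5 CPM added, no filter or one at 5 CPM, unrounded counts and removal of the GC trend, the last chosen after seeing the data. With 2-fold as the size, 1 member was lower and 0 were higher, since Gap43 falls just short. The median of the members ranged from -0.23 to -0.17. The log2 difference of Dcx was -2.35 on TPM and -2.40 with 5 CPM added, both of which shrink low values. Over all kept genes, 532 were higher and 1290 lower, and with 5 CPM added 304 and 674. At 2-fold these numbers were 158 and 486. Of 352 list counts and medians recomputed, 34 moved past their limit, nearly all of them counts of few genes. Depth limits Stmn2, whose 0.25 CPM value was -0.61 beside -0.24. No paired analysis was possible because each label has 1 library.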

Other observations

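Further lists were added after the values above had been seen. The gamma-tubulin ring complex and its partners start new microtubules at centrosomes and spindles. Of these genes 12 of 12 were kept and 0 were at least 1.5-fold apart, with 10 above 0 and a median of 0.14. Of all kept genes, 85.6% lay within 1.5-fold and 52.2% lay below 0. The actin and spectrin skeleton of axons and growth cones was read through 17 genes. Of these, 0 were at least 1.5-fold higher and 1 was lower (median -0.22), beside 4.22% and 10.2% of all kept genes. The lower gene was Sptbn4, a spectrin of the axon initial segment, with 27 against 64 reads (2.38-fold, 1.4958 to 3.88).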
